A study of Rattus norvegicus with 24 samples.

Results

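The enzymes described here make serine, pass its carbon to folate in the mitochondrion and cytosol, or make asparagine. They are 10 genes, taken by symbol from the deposited count tables, with no threshold on a measured value: Phgdh, Psat1, Psph, Shmt1, Shmt2, Mthfd1, Mthfd2, Mthfd1l, Aldh1l2 and Asns. All 10 were among the 17055 genes listed and among the 9994 that passed the filter on low counts, and the lowest count of any of them in a library was 38. The libraries hold total RNA of PC12, a cell line from a rat pheochromocytoma, a tumour of adrenal chromaffin cells, in 8 groups of 3 labelled replicates. The groups are cells that stably express α1ACT, a transcription factor made from the CACNA1A calcium channel gene, at 6 h, 24 h, 3 d and 10 d, and cells that stably carry the empty pcDNA3 vector at the same 4 times. The labels give 1 stable line per construct, with no clone named, at passages 18 to 20 in F-12K medium with horse serum and fetal bovine serum, and name no treatment of either line. The event from which the times run is not given in the sources used here, and the labels call the replicates biological without saying how their cultures were kept apart. The p-values therefore speak only of variation among the sequenced libraries, which may be technical.

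Groups are named by the labels, and the deposited files carry names that differ from them. The 12 files named P hold the 4 groups labelled 6 h and 24 h, and the 12 files named Q11 hold the 4 groups labelled 3 d and 10 d. Of the 24 file names, 18 give another time than the label and none another replicate number. The sample titles use P for vector and Q11 for α1ACT, so 12 file names give another line than the label. The α1ACT transgene has no feature in the tables, so neither set of names could be checked against it. Libraries held 8679560 to 14486248 counts on genes, and of 15 listed chromaffin markers, 14 were in the tables used and 13 had counts in all libraries, with summed levels of 27700 to 38800 CPM, a count scaled to a common library size. The defining markers Ptprc of immune cells, Sox10 of glia, Cyp11b1 of adrenal cortex and Col1a2 and Lum of fibroblasts had no count in any library.

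Serine is made from the glycolytic intermediate 3-phosphoglycerate in a short chain of reactions. Phgdh oxidises it, Psat1 adds the amino group and Psph removes the phosphate. Serine hydroxymethyltransferases then split serine into glycine and a carbon unit carried by folate, Shmt2 in the mitochondrion and Shmt1 in the cytosol. In the mitochondrion Mthfd2 oxidises that unit, Mthfd1l releases it as formate and Aldh1l2 can burn it to carbon dioxide with the production of NADPH. Mthfd1 takes up formate in the cytosol, where the unit feeds purine, thymidylate and methionine synthesis. Asns makes asparagine from aspartate and glutamine. Several of these genes, Asns among them, are known in other cells as targets of Atf4. That transcription factor is translated when amino acids run short or proteins misfold.

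Levels of 7 of the 10 genes were low in the groups labelled 6 h and 3 d and high in the groups labelled 24 h and 10 d, in both lines. They were Phgdh, Psat1, Psph, Shmt2, Mthfd2, Aldh1l2 and Asns. For each of these 7 genes every library of the 24 h and 10 d groups lay above every library of the 6 h and 3 d groups. The share of all genes with such a separation is not given here. The ratio of the highest to the lowest group mean was 14.1 for Aldh1l2, 7.27 for Phgdh, 7.12 for Psph, 6.74 for Psat1, 3.67 for Mthfd2, 3.49 for Shmt2 and 3.15 for Asns. Shmt1 and Mthfd1, the cytosolic enzymes, ran the other way with vector. With α1ACT their log2 differences at 24 h against 6 h were only -0.09 and -0.04. Their ratios over the 8 groups were 1.34 and 1.68, the latter between α1ACT 6 h and vector 10 d, and Mthfd1l had a ratio of 1.5. All 10 genes differed somewhere among the 8 groups by edgeR's quasi-likelihood test with Benjamini-Hochberg adjustment, as did 89.5% of all genes tested. Over the 8 group means the 7 genes had pairwise Pearson correlations of 0.91 to 1 with each other and of -0.97 to -0.69 with Shmt1 and Mthfd1. These correlations describe 8 means that share their libraries and have no test.

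**Figure D1:**
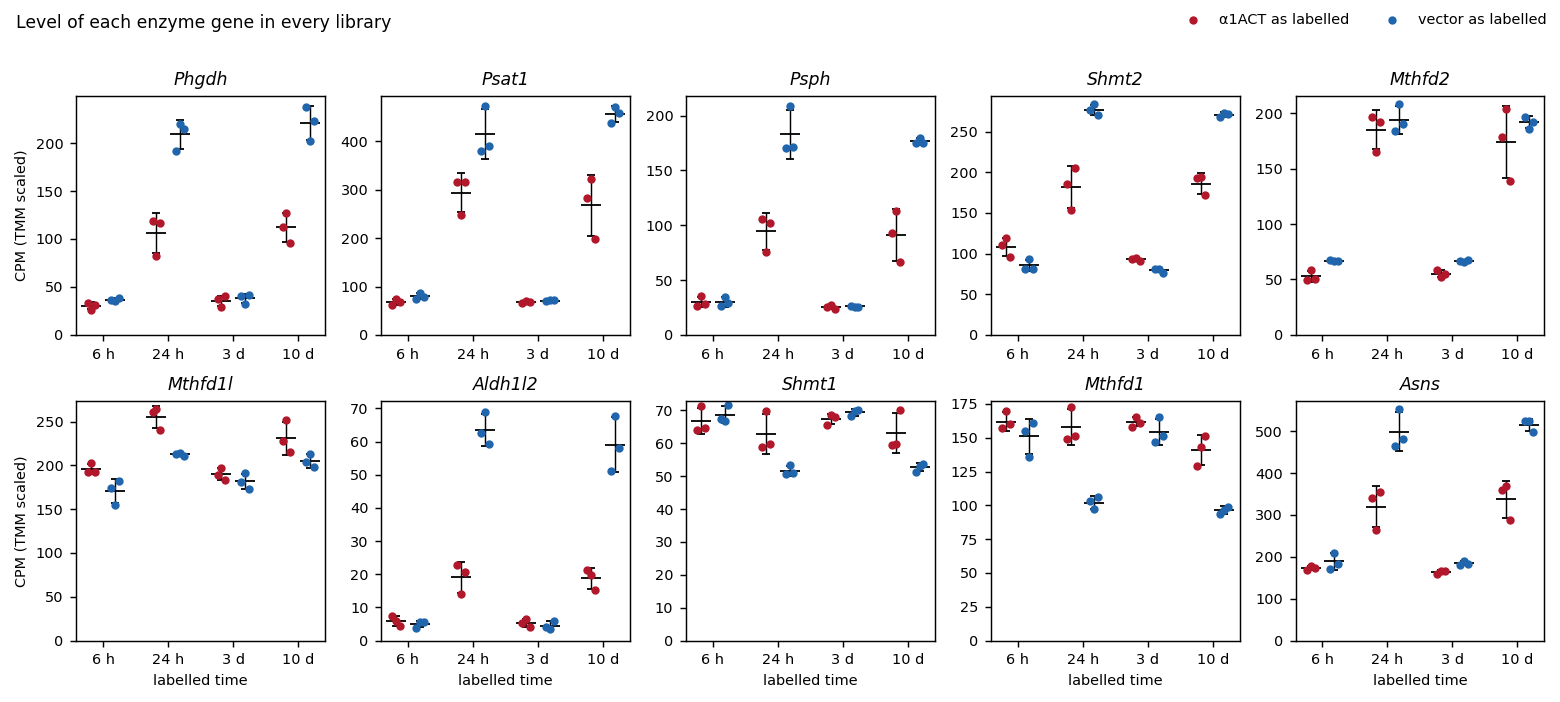
Level of each of the 10 genes in CPM (counts scaled to a common library size by TMM, linear axis from 0) in every library, with 1 dot per library, the mean and the SD (n = 3) for each group, α1ACT left of vector at each labelled time. The 7 genes from Phgdh to Asns that share a pattern are high at 24 h and 10 d, where Aldh1l2 reached 51.1 to 68.9 CPM with vector, while Shmt1 and Mthfd1 are lower with vector at those times.

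Of the 5 genes whose profile was most like the mean profile of the 10, 3 are on the list of amino acid response genes, which holds 16 of the 9994 genes tested. Such likeness was common, with a correlation over 0.95 for 128 genes, and how many of those are on the list is not given here. Within the 10, Shmt1 (r = -0.805) and Mthfd1 (r = -0.654) ran against that mean. Among all other genes tested, the highest correlations with the mean profile of the 10, over the 8 group means, were those of Trib3 (r = 0.997), Adm2 (r = 0.994), Chac1 (r = 0.991), Ndufab1 (r = 0.991) and Eif4ebp1 (r = 0.99). Trib3 is a pseudokinase that binds Atf4, Adm2 a secreted peptide, Chac1 an enzyme that cleaves glutathione, Eif4ebp1 a repressor of cap-dependent translation and Ndufab1 the mitochondrial acyl carrier protein. Likeness of shape says nothing of size. Chac1 at 24 h was 15.1-fold its 6 h level with α1ACT and 25-fold with vector, whereas Ndufab1 was 1.18-fold and 1.17-fold. The lowest correlations were those of Kat7, a histone acetyltransferase (r = -0.994), LOC683788 (r = -0.993) and P4ha3, a collagen prolyl hydroxylase (r = -0.991). P4ha3 averaged only 0.141 to 0.221 CPM in the groups labelled 24 h and 10 d, under the level that 3 counts give in those libraries.

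Start regions were available for 8 of the 10 genes from RefSeq (GRCr8 build, 250 bases before to 50 after the annotated start), with no entry for Mthfd1 and Aldh1l2. They were searched on both strands for TGATGNAA, the core of the element that Atf4 binds with C/EBP proteins, and for CACGTG, the E-box that reads the same on both strands and shares no stretch with the first motif. TGATGNAA stood in none of the 8 windows and in 3 of 15 of the amino acid response list (Chac1, Nupr1 and Trib3), against 3.98% of all 33469 windows. CACGTG stood in 1 of the 8, against 6.42% of all windows: Shmt1 holds it at 89 to 84 and at 61 to 56 bases before the start. Psat1 and Asns are shown as 2 genes that move together, Shmt1 as the one of opposite course, and Trib3 and Chac1 as genes of like profile that hold the first motif, at 21 to 14 and at 167 to 160 bases before the start, on the strand opposite to the gene. The choice of windows to show was made after levels and matches were seen. Each runs 5′ to 3′ along its gene's strand with motif matches in capitals. A match is a string of letters and not a measured site, and its absence from so short a window says nothing of any factor.
Psat1, chr1:222645359-222645658, minus strand: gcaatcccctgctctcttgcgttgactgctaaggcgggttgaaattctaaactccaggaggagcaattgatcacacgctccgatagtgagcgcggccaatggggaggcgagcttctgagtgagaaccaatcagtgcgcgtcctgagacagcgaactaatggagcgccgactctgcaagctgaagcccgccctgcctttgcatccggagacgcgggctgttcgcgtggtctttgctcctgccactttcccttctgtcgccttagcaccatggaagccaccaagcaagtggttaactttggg
Asns, chr4:36769366-36769665, minus strand: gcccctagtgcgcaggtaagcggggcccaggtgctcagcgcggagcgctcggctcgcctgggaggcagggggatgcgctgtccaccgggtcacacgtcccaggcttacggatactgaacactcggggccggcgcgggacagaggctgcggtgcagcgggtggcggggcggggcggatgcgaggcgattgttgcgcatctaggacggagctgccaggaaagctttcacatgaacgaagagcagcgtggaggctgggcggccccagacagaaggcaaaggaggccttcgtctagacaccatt
Shmt1, chr10:45990292-45990591, minus strand: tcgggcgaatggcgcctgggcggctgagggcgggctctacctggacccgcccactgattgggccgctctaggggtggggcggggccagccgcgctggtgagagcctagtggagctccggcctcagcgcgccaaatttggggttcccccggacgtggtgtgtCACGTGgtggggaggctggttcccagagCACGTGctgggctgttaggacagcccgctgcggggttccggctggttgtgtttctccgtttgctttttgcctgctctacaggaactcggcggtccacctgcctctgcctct
Trib3, chr3:161275484-161275783, minus strand: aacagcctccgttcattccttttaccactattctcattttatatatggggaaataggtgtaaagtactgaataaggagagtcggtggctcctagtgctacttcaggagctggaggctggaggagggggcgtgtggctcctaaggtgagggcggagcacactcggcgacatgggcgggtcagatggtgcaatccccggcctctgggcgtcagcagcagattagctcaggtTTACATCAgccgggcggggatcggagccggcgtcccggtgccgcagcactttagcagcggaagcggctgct
Chac1, chr3:126795881-126796180, plus strand: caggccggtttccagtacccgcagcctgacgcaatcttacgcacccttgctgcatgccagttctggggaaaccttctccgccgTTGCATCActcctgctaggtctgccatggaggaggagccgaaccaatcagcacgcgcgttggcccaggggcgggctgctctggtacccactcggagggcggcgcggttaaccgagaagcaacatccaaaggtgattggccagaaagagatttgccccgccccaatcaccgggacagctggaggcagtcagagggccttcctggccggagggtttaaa

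The first comparison asks how the labelled times differ within a line. At 24 h against 6 h, 8 of the 10 genes were higher and none lower with α1ACT, where 21.7% of all genes tested were higher and 22.4% lower. With vector 8 were higher and 2 lower, against 31.6% and 29.9% of all genes. At 10 d against 3 d the counts were 8 higher and 1 lower with α1ACT (21.8% and 22.8% of all genes) and 8 higher and 2 lower with vector (33.2% and 31% of all genes). The median log2 fold change of the 10 at 24 h against 6 h was 1.27 with α1ACT and 1.61 with vector, beside medians over all genes of 0.00 and 0.02. In bulk RNA a change in the share of cells that express a gene and a change in the RNA per cell cannot be told apart.

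Phgdh, the enzyme that commits 3-phosphoglycerate to serine, stood at 33.7, 26.2 and 31.4 CPM with α1ACT at 6 h, at 119, 82 and 117 CPM at 24 h, at 36.9, 29.3 and 40.1 CPM at 3 d and at 113, 127 and 95.9 CPM at 10 d. With vector it stood at 36.1, 35 and 38.2 CPM at 6 h, at 192, 220 and 215 CPM at 24 h, at 40.7, 32.2 and 41.1 CPM at 3 d and at 238, 202 and 223 CPM at 10 d. Groups next to each other in level overlapped among the low ones, while the α1ACT and the vector libraries of the high groups were separate. At 24 h against 6 h Phgdh was 3.50-fold higher with α1ACT (log2 1.81 ± 0.13 SE, adjusted p = 6.49e-11) and 5.75-fold higher with vector (log2 2.52 ± 0.13, adjusted p = 1.41e-14). It was 3.17-fold higher at 10 d than at 3 d with α1ACT and 5.82-fold higher with vector.

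The next enzymes of the chain had the same course. Psat1, the transaminase, lay between 62.2 and 87 CPM in the 12 libraries labelled 6 h and 3 d, and at 24 h and 10 d it lay between 199 and 323 CPM with α1ACT and between 381 and 474 CPM with vector. It was 4.35-fold higher at 24 h than at 6 h with α1ACT and 5.20-fold higher with vector, and at 10 d against 3 d 3.94-fold with α1ACT and 6.44-fold with vector. Psph, the phosphatase, lay between 24 and 35.3 CPM in the low groups, and at 24 h and 10 d between 66.6 and 113 CPM with α1ACT and between 170 and 209 CPM with vector. It was 3.15-fold higher at 24 h than at 6 h with α1ACT and 6.13-fold higher with vector. The highest adjusted p of these Psat1 and Psph comparisons was 2.07e-09. RefSeq annotates 6 pseudogenes of Phgdh and 1 of Psat1, and reads that match a copy could have been counted apart from the gene or not at all.

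The serine hydroxymethyltransferases split by compartment. Shmt2, the mitochondrial enzyme, held 110, 119 and 96 CPM with α1ACT at 6 h, 186, 154 and 205 CPM at 24 h, 93.5, 95 and 91 CPM at 3 d and 193, 194 and 172 CPM at 10 d. With vector Shmt2 held 81.5, 93.3 and 81.3 CPM at 6 h, 277, 284 and 271 CPM at 24 h, 80.8, 81.2 and 76.4 CPM at 3 d and 268, 273 and 272 CPM at 10 d. The lines thus changed order, α1ACT being above vector in the low groups and below it in the high ones. Shmt2 was 1.68-fold higher at 24 h than at 6 h with α1ACT (adjusted p = 3.21e-08) and 3.24-fold higher with vector (adjusted p = 3.91e-15). Shmt1, the cytosolic enzyme, held 58.9, 69.8 and 59.9 CPM with α1ACT at 24 h and 64.1, 71.3 and 64.6 CPM at 6 h, groups that overlapped. With vector Shmt1 held 50.7, 53.3 and 51 CPM at 24 h and 67.4, 66.9 and 71.7 CPM at 6 h, without overlap.

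At 24 h against 6 h the Shmt1 difference with α1ACT was -0.09 ± 0.07 (log2, SE) and did not pass (adjusted p = 0.293), while with vector Shmt1 fell 1.33-fold (log2 -0.41 ± 0.07, adjusted p = 6.53e-06). The α1ACT difference passed without α1ACT 24 h replicate 2 (log2 -0.17, adjusted p = 0.0437). For 10 d against 3 d Shmt1 was at -0.09 ± 0.07 with α1ACT (adjusted p = 0.259) and 1.31-fold lower with vector (adjusted p = 1.08e-05), and the α1ACT value passed without α1ACT 10 d replicate 3 (log2 -0.18, adjusted p = 0.0325). Shmt2 overlaps Ndufa4l2 on the genome and has 1 annotated pseudogene, and the strand setting of the counting is not given in the sources used here, so its counts could hold reads of its neighbour.

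Aldh1l2, Mthfd2 and Mthfd1l carry the folate-bound carbon further in the mitochondrion. Aldh1l2 held 7.55, 5.75 and 4.39 CPM with α1ACT at 6 h, 22.8, 13.9 and 20.6 CPM at 24 h, 5.31, 6.48 and 4.1 CPM at 3 d and 21.3, 19.8 and 15.3 CPM at 10 d. With vector Aldh1l2 held 3.9, 5.63 and 5.6 CPM at 6 h, 62.5, 68.9 and 59.3 CPM at 24 h, 4.1, 3.49 and 5.91 CPM at 3 d and 51.1, 67.6 and 58.2 CPM at 10 d. Lines overlapped in the low groups and were far apart in the high ones. At 24 h against 6 h Aldh1l2 was 3.25-fold higher with α1ACT (log2 1.70 ± 0.20 SE, adjusted p = 2.13e-07) and 12.6-fold higher with vector (log2 3.65 ± 0.19, adjusted p = 1.43e-14). It was 3.55-fold higher at 10 d than at 3 d with α1ACT and 13.2-fold higher with vector.

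Mthfd2, the dehydrogenase of the mitochondrial pathway, held 49.6, 58.5 and 50.4 CPM with α1ACT at 6 h, 197, 165 and 192 CPM at 24 h, 58.8, 52 and 55 CPM at 3 d and 179, 204 and 139 CPM at 10 d. With vector Mthfd2 held 67.5, 66.5 and 66.8 CPM at 6 h, 184, 208 and 190 CPM at 24 h, 66.7, 66.1 and 67.8 CPM at 3 d and 197, 186 and 192 CPM at 10 d. The lines were separate in the low groups, α1ACT being lower, and overlapped in the high groups. Mthfd2 was 3.50-fold higher at 24 h than at 6 h with α1ACT (adjusted p = 1.87e-13) and 2.89-fold higher with vector (adjusted p = 3.34e-13). Mthfd1l, the formate-releasing enzyme, stayed between 155 and 264 CPM in all 24 libraries. It was 1.30-fold higher at 24 h than at 6 h with α1ACT (adjusted p = 8.87e-06) and 1.25-fold higher with vector (adjusted p = 4.29e-05). At 10 d against 3 d it was 1.22-fold higher with α1ACT (adjusted p = 0.000333) and 1.13-fold higher with vector (adjusted p = 0.013), and this vector value did not pass without vector 3 d replicate 3 (adjusted p = 0.0704) or vector 10 d replicate 2 (adjusted p = 0.059). Mthfd1l overlaps Mapre1-ps1 and LOC120100178 on the genome.

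Mthfd1, the cytosolic enzyme with 3 activities on folate, moved against the mitochondrial ones with vector. It held 149, 173 and 151 CPM with α1ACT at 24 h and 157, 170 and 160 CPM at 6 h, groups that overlapped. With vector it held 103, 97 and 106 CPM at 24 h and 155, 136 and 161 CPM at 6 h, without overlap. The α1ACT difference of -0.04 ± 0.07 (log2, SE) did not pass (adjusted p = 0.661), and with vector Mthfd1 fell 1.48-fold (log2 -0.56 ± 0.07, adjusted p = 7.75e-08). At 10 d Mthfd1 held 129, 143 and 151 CPM with α1ACT, against 158, 165 and 161 CPM at 3 d, and 93.3, 96.5 and 99.1 CPM with vector, against 147, 165 and 151 CPM at 3 d. It was 1.14-fold lower at 10 d than at 3 d with α1ACT (adjusted p = 0.0204) and 1.60-fold lower with vector (adjusted p = 2.80e-09), and the α1ACT value did not pass without α1ACT 3 d replicate 2 (adjusted p = 0.0628) or α1ACT 10 d replicate 1 (adjusted p = 0.123). RefSeq annotates 1 pseudogene of Mthfd1.

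Asns, the asparagine synthetase, held 168, 178 and 174 CPM with α1ACT at 6 h, 341, 263 and 354 CPM at 24 h, 159, 166 and 165 CPM at 3 d and 359, 368 and 287 CPM at 10 d. With vector Asns held 172, 210 and 184 CPM at 6 h, 465, 552 and 482 CPM at 24 h, 180, 190 and 184 CPM at 3 d and 525, 524 and 498 CPM at 10 d. Every 24 h and 10 d library was above every 6 h and 3 d library, with vector above α1ACT in the high groups. Asns was 1.84-fold higher at 24 h than at 6 h with α1ACT (adjusted p = 2.99e-08) and 2.65-fold higher with vector (adjusted p = 1.42e-12).

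**Figure D2:**
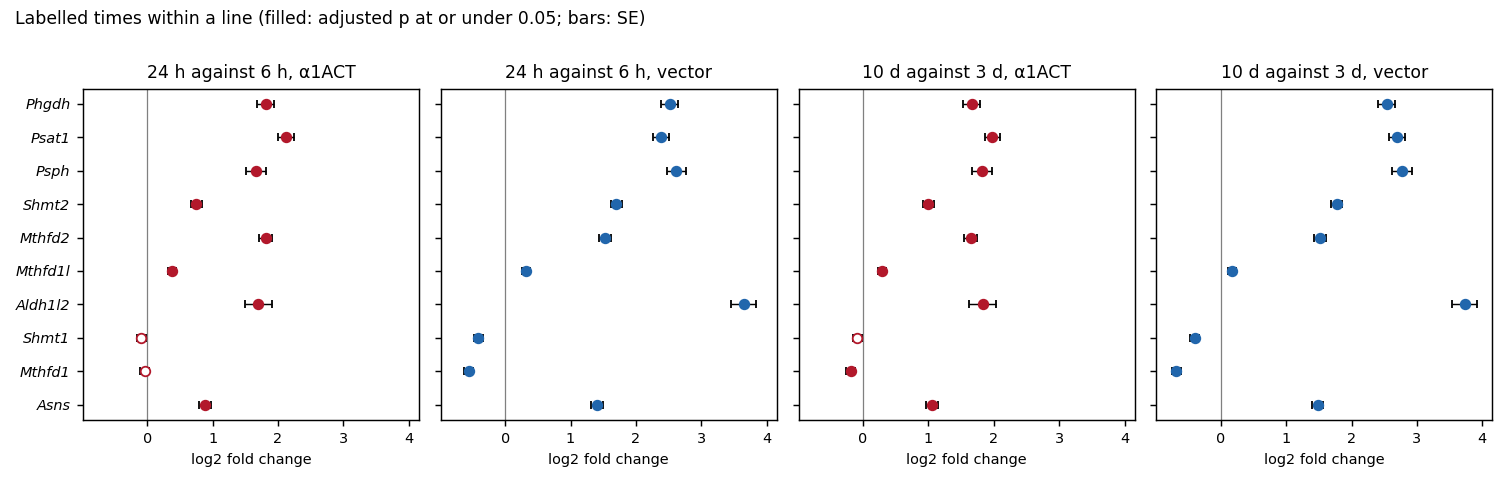
Log2 fold change of each of the 10 genes between labelled times within a line, 24 h against 6 h and 10 d against 3 d, with SE bars; filled circles passed an adjusted p of 0.05. Aldh1l2 lies farthest right with vector, at 3.65 and 3.73, while open circles mark Shmt1 with α1ACT in both comparisons and Mthfd1 with α1ACT at 24 h against 6 h.

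The 7 genes of common course deviated together within 3 of the 8 groups, those labelled α1ACT 24 h, α1ACT 10 d and vector 24 h. Across these 7 genes, α1ACT 24 h replicate 2 lay below its group mean for 7 of 7 genes, with a median deviation of -0.27 on the log2 scale, and α1ACT 10 d replicate 3 lay below its group mean for 7 of 7 with a median of -0.28. The other replicates of those 2 groups lay above their group mean for 7 of 7. In vector 24 h replicate 1 lay below for 7 of 7 (median -0.10) and replicate 2 for 0 of 7 (median 0.12). Medians of all libraries other than the 2 lowest were between -0.10 and 0.19. Markers listed for epithelial cells, chiefly Krt8, Krt18 and Epcam, had lower summed levels where the 7 genes were high. Of 4 tested, 3 were lower and none higher in each line (not Krt18 with α1ACT and not Cdh1 with vector) at 24 h against 6 h and at 10 d against 3 d. Of all genes 22.4% were lower and 21.7% higher at 24 h against 6 h with α1ACT, and 29.9% and 31.6% with vector. At 10 d against 3 d the shares were 22.8% and 21.8% with α1ACT and 31% and 33.2% with vector. With α1ACT the epithelial markers summed to 924 to 1070 CPM at 6 h, 652 to 669 CPM at 24 h, 920 to 1160 CPM at 3 d and 677 to 734 CPM at 10 d. With vector they summed to 1480 to 1800 CPM at 6 h, 476 to 497 CPM at 24 h, 1260 to 1720 CPM at 3 d and 482 to 498 CPM at 10 d. The chromaffin markers summed to 34500 to 38500 CPM with α1ACT at 24 h and 37200 to 38800 CPM at 10 d, against 27700 to 33800 CPM in the other groups. The summed levels of the remaining lists were at most 15.9 CPM for glial, 7.34 CPM for fibroblast, 3.53 CPM for immune and 3.37 CPM for adrenal cortex markers. The part of any of these markers in the result was not tested.

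The second comparison, the one the labels set up, is α1ACT against vector at each time. At 24 h 3 of the 10 genes were higher and 6 lower with α1ACT, where 26.6% of all genes tested were higher and 28.8% lower. At 10 d the counts were again 3 higher and 6 lower, against 29.5% and 29.4% of all genes. At 6 h 2 were higher and 1 lower (20.5% and 21.2% of all genes), and at 3 d 1 was higher and 1 lower (19.9% and 19.4%), shares no greater than those of all genes. Each vector group also serves in the comparisons between times, so the sets of values share libraries.

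The 3 serine synthesis genes, Aldh1l2, Shmt2 and Asns made up the 6 lower at both 24 h and 10 d. Aldh1l2 stood 3.30-fold below vector at 24 h (log2 -1.72 ± 0.15 SE, adjusted p = 4.84e-10) and 3.12-fold below it at 10 d (log2 -1.64 ± 0.16, adjusted p = 2.01e-09). At both times Phgdh was 1.97-fold lower (log2 -0.98 ± 0.12, adjusted p = 9.21e-08 at 24 h and 9.17e-08 at 10 d). Psph was 1.94-fold lower at both times, and Psat1 differed by 1.41-fold at 24 h and 1.70-fold at 10 d in the same direction. For Shmt2 the α1ACT level was lower by 1.52-fold at 24 h and 1.45-fold at 10 d, and for Asns by 1.56-fold at 24 h and 1.52-fold at 10 d. In each of these genes no α1ACT library reached a vector library of the same time. How many of all genes separate in that way is not given here.

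Both cytosolic folate enzymes and Mthfd1l were higher with α1ACT at those times. These 3 of 10 are near the shares of all genes that were higher, 26.6% at 24 h and 29.5% at 10 d. Mthfd1 was 1.55-fold higher at 24 h (log2 0.63 ± 0.07 SE, adjusted p = 1.54e-08) and 1.47-fold higher at 10 d (log2 0.55 ± 0.07, adjusted p = 1.70e-07). Shmt1 was 1.22-fold higher at 24 h (adjusted p = 0.000761) and 1.20-fold higher at 10 d (adjusted p = 0.00186). Mthfd1l was 1.20-fold higher at 24 h (adjusted p = 0.000459) and 1.13-fold higher at 10 d (adjusted p = 0.0126). That last call was lost without vector 10 d replicate 3 (adjusted p = 0.0589) or α1ACT 10 d replicate 2 (adjusted p = 0.125). Mthfd2 did not pass at 24 h (log2 -0.07 ± 0.09, adjusted p = 0.535) or at 10 d (log2 -0.14 ± 0.09, adjusted p = 0.177), and at 10 d it passed without α1ACT 10 d replicate 2 (log2 -0.27, adjusted p = 0.0102).

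In the groups labelled 6 h and 3 d the lines differed little. Shmt2 was 1.27-fold higher with α1ACT at 6 h (log2 0.34 ± 0.08 SE, adjusted p = 0.00167) and 1.17-fold higher at 3 d (log2 0.23 ± 0.08, adjusted p = 0.0305). Mthfd2 was lower by 1.27-fold at 6 h (log2 -0.34 ± 0.10, adjusted p = 0.00772) and by 1.21-fold at 3 d (log2 -0.27 ± 0.10, adjusted p = 0.031). Both 3 d calls were near the threshold. Shmt2 did not pass in 5 of the 6 fits that left out a 3 d library, with adjusted p between 0.0526 and 0.101, and Mthfd2 did not pass in 5, between 0.0619 and 0.112. Mthfd1l was 1.15-fold higher at 6 h (adjusted p = 0.00919), a call lost without α1ACT 6 h replicate 2 (adjusted p = 0.0792) or vector 6 h replicate 2 (adjusted p = 0.0901). A fit of the 6 h groups alone also called Phgdh (log2 -0.25, adjusted p = 0.0365) and Psat1 (log2 -0.23, adjusted p = 0.0176).

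**Figure D3:**
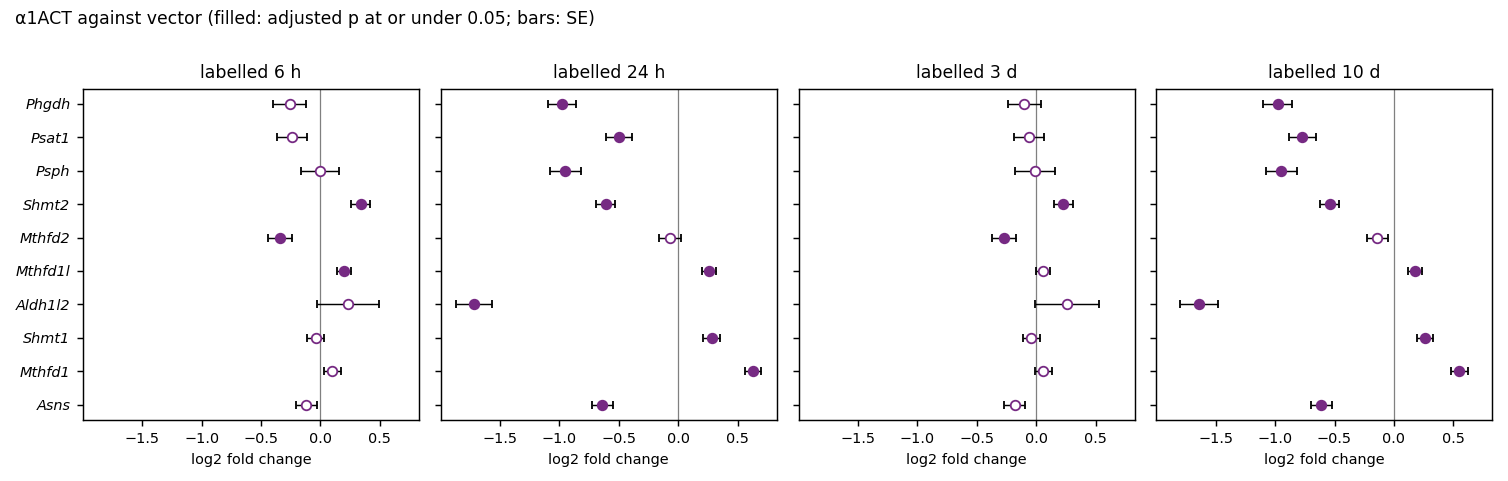
Log2 fold change of α1ACT against vector for each of the 10 genes at the 4 labelled times, with SE bars; filled circles passed an adjusted p of 0.05. At 24 h and 10 d 6 filled circles lie left of 0, Aldh1l2 farthest at -1.72 and -1.64, and Shmt1, Mthfd1 and Mthfd1l lie right of it.

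Whether the lines differed in their differences between times was tested directly. The interaction of line and time passed for 8 of the 10 genes, beside 57.7% of all genes, with Mthfd2 (adjusted p = 0.239) and Mthfd1l (adjusted p = 0.201) not passing. Mthfd2 passed when α1ACT 10 d replicate 3 was left out (adjusted p = 0.0152). For the step from 6 h to 24 h, a contrast chosen after the data were seen, the log2 change with α1ACT minus that with vector was -1.95 ± 0.30 SE for Aldh1l2 (adjusted p = 5.19e-06), -0.96 ± 0.21 for Psph (adjusted p = 0.000424), -0.95 ± 0.11 for Shmt2 (adjusted p = 1.07e-07), -0.72 ± 0.19 for Phgdh (adjusted p = 0.00217) and -0.52 ± 0.13 for Asns (adjusted p = 0.00148). The difference was of the other sign for Mthfd1 (0.52 ± 0.09, adjusted p = 4.99e-05) and Shmt1 (0.32 ± 0.09, adjusted p = 0.00497). In that contrast 7 of the 10 passed, beside 51.4% of all genes. Psat1 did not pass there (-0.26 ± 0.17, adjusted p = 0.212) but did for the step from 3 d to 10 d (-0.71 ± 0.17, adjusted p = 0.00123), where 8 of the 10 passed, beside 52.2% of all genes.

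Times that share a level were then set against each other. At 3 d against 6 h none of the 10 genes passed in either line, where 1.06% of all genes passed with α1ACT and 1.47% with vector. At 10 d against 24 h none passed either, with 4.62% of all genes called with α1ACT and 7.44% with vector. By edgeR's quasi-likelihood test at an unadjusted p under 0.05, 1 of the 10 was counted at 3 d against 6 h with α1ACT, 0 with vector, 2 at 10 d against 24 h with α1ACT and 0 with vector, and DESeq2 called 0 in all 4. The log2 differences of the 10 genes ran from -0.22 to 0.22 at 3 d against 6 h with α1ACT, from -0.20 to 0.09 with vector, from -0.16 to 0.08 at 10 d against 24 h with α1ACT and from -0.11 to 0.14 with vector. Mthfd1l was the exception among the fits that left out a library: at 10 d against 24 h with α1ACT it passed without α1ACT 10 d replicate 2 (log2 -0.20, adjusted p = 0.0476).

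The names on the files give the same 24 libraries another order. By those names the 7 genes were low in files named 6H and 24H and high in files named 3D and 10D, in Q11 and in P files alike. All 7 had lower means in files named 10D than in files named 3D, and all but Mthfd2 passed. By the labels that is α1ACT against vector at 10 d for Q11 and at 24 h for P. Aldh1l2 averaged 4.5, 5.3, 59 and 18.8 CPM in the Q11 files named 6H, 24H, 3D and 10D, and 5.04, 5.9, 63.6 and 19.1 CPM in the P files of those names. Phgdh averaged 38, 35.4, 221 and 112 CPM in that order in the Q11 files and 36.4, 30.4, 209 and 106 CPM in the P files. Mthfd1 had its lowest mean in the files named 3D, at 96.3 CPM in Q11 and 102 CPM in P, and between 141 and 162 CPM in the others. The comparison of Q11 with P files of the same name would, by the file names, be α1ACT against vector. By the labels it is 3 d against 6 h or 10 d against 24 h in 1 line. None of the 10 genes passed in it. Over all Q11 against all P files, which is 3 d and 10 d against 6 h and 24 h averaged over lines, 0 of the 10 passed by edgeR's quasi-likelihood test, beside 15.6% of all genes, with 0 at an unadjusted p under 0.05 and 0 by DESeq2. Shmt2 passed there without α1ACT 24 h replicate 2 (log2 -0.11, adjusted p = 0.035).

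**Figure D4:**
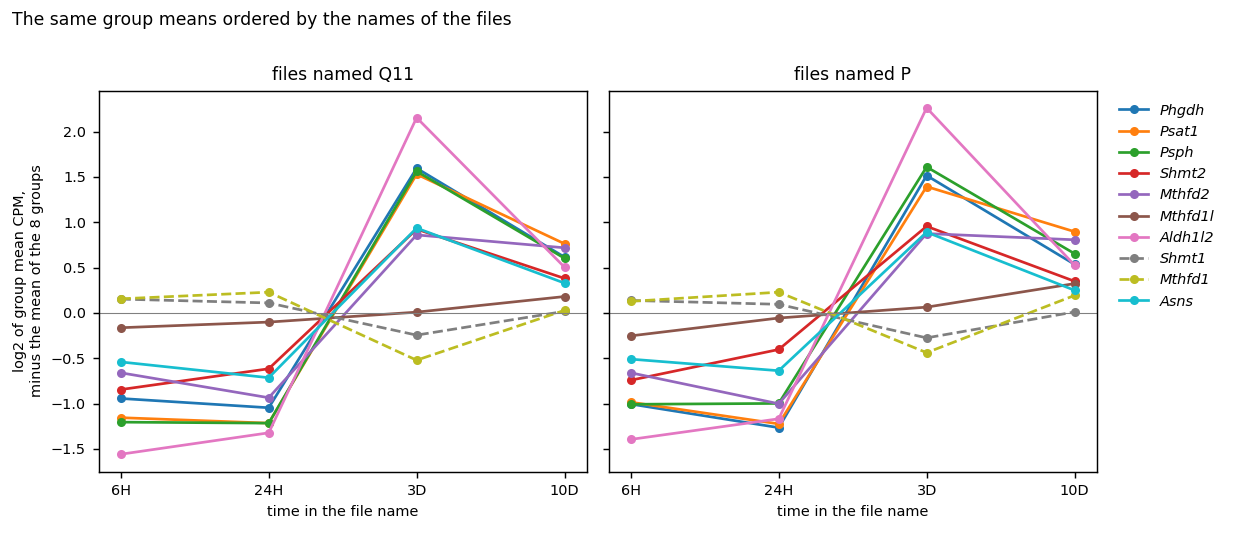
Log2 of the group mean CPM of each of the 10 genes, minus that gene's mean over the 8 groups, in the order of the times in the file names, for files named Q11 (left) and P (right); dashed lines mark Shmt1 and Mthfd1. In both panels the 7 genes of common course have their highest mean at 3D, where Aldh1l2 averaged 59 CPM in Q11 and 63.6 CPM in P files, and Shmt1 and Mthfd1 are lowest.

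Most regulators and targets of the amino acid response had the same course as the 7 genes. Of 16 tested genes on that list, 13 were higher and 1 lower at 24 h against 6 h with α1ACT (median log2 1.57), and 14 were higher and 2 lower with vector (median 1.91), beside medians of 0.00 and 0.02 over all genes. Eif2ak4 was lower in both lines (log2 -0.44 with α1ACT and -0.68 with vector), and Eif2ak3 was the other lower gene with vector (log2 -0.24). Of all genes 21.7% were higher and 22.4% lower in that comparison with α1ACT, and 31.6% and 29.9% with vector. In each line 14 were higher and 1 lower at 10 d against 3 d, with medians of 1.48 with α1ACT (21.8% and 22.8% of all genes) and 2.03 with vector (33.2% and 31% of all genes). Against vector, α1ACT had 0 higher and 12 lower at 24 h and likewise at 10 d, with a median of -0.57 at both, beside 26.6% and 28.8% of all genes at 24 h and 29.5% and 29.4% at 10 d. Atf4 itself, whose protein is set largely by translation, averaged 292 ± 53.4 CPM at 6 h, 909 ± 56.9 at 24 h, 232 ± 21.7 at 3 d and 916 ± 93.8 at 10 d with α1ACT, and 415 ± 53.4, 1020 ± 60.7, 385 ± 39.6 and 1020 ± 31.3 CPM at those times with vector (SD, n = 3). It was lower with α1ACT at 6 h (log2 -0.51, adjusted p = 0.000335) and at 3 d (log2 -0.73, adjusted p = 5.11e-06), and did not pass between the lines at 24 h (log2 -0.16 ± 0.10, adjusted p = 0.181) or at 10 d (log2 -0.15 ± 0.10, adjusted p = 0.191). Among the list's genes of lowest p at 24 h, Atf5, a related transcription factor, was 3.27-fold lower with α1ACT, Ppp1r15a, which restores translation after stress, 2.94-fold, Stc2, a secreted glycoprotein, 2.29-fold and Sesn2, a leucine-sensing inhibitor of mTORC1 signalling, 1.86-fold.

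Other enzymes and carriers of folate changed in both directions. Of 10 tested, 3 were higher and 2 lower at 24 h against 6 h with α1ACT, beside 21.7% and 22.4% of all genes, and 4 higher and 4 lower with vector, beside 31.6% and 29.9%. Between the lines 5 were higher and 2 lower with α1ACT at 24 h (median log2 0.19), beside 26.6% and 28.8% of all genes, and likewise at 10 d (median 0.31), beside 29.5% and 29.4%. Tyms, which makes thymidylate, averaged 119 ± 16.6 CPM with α1ACT and 56.3 ± 6.87 CPM with vector at 24 h (SD, n = 3 each), a 2.09-fold difference (adjusted p = 4.20e-10). It was 1.46-fold lower at 24 h than at 6 h with α1ACT and 3.26-fold lower with vector. Sfxn1, a mitochondrial serine carrier, was 1.45-fold higher at 24 h than at 6 h with vector and 1.31-fold lower with α1ACT than with vector at 10 d, and Slc25a32, a mitochondrial folate carrier, was 1.31-fold higher at 24 h than at 6 h with α1ACT and 1.34-fold higher with vector.

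Of 5 tested genes of the glycolytic steps around 3-phosphoglycerate, 2 were higher and 1 lower at 24 h against 6 h with α1ACT (21.7% and 22.4% of all genes). With vector 1 was higher, Pkm (1.29-fold), and 3 were lower (31.6% and 29.9% of all genes). Between the lines 3 were higher and none lower with α1ACT at 24 h (median log2 0.31), beside 26.6% and 28.8% of all genes. At 10 d 4 were higher and none lower (median 0.57), beside 29.5% and 29.4%. Pgk1, which makes 3-phosphoglycerate, averaged 1040 ± 31.2 CPM with α1ACT and 582 ± 5.22 CPM with vector at 24 h (SD, n = 3 each), a 1.79-fold difference (adjusted p = 8.94e-14). Eno1, the enolase downstream, was 1.65-fold higher with α1ACT at 24 h and 2.01-fold higher at 10 d.

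In pathways that use serine, glycine or folate-bound carbon, several counts were near the shares over all genes, which for α1ACT against vector were 26.6% higher and 28.8% lower at 24 h and 29.5% and 29.4% at 10 d. Purine synthesis, of which 12 genes were tested, had 7 higher and 2 lower with α1ACT than with vector at 24 h and 7 higher and 1 lower at 10 d, led by Prps2, a phosphoribosyl pyrophosphate synthetase (2.14-fold and 2.45-fold higher). At 24 h against 6 h 2 purine genes were higher and 5 lower in each line, beside 21.7% and 22.4% of all genes with α1ACT and 31.6% and 29.9% with vector. Of 9 genes of glycine cleavage and serine or glycine use, 2 were higher and 2 lower with α1ACT at 24 h and 3 higher and 2 lower at 10 d. Cth, which makes cysteine from cystathionine, averaged 4.81 ± 1.88 CPM with α1ACT and 14.7 ± 4.24 CPM with vector at 24 h (2.96-fold lower, adjusted p = 3.45e-06), and a library of the low groups held as little as 1 count of it. Of 7 methionine cycle genes, 3 were higher and 1 lower with α1ACT at 24 h and 2 higher and 2 lower at 10 d. For Mtr, methionine synthase, α1ACT libraries were lower by 1.81-fold at 24 h and by 2.05-fold at 10 d. Of 10 genes of aspartate, glutamate and proline synthesis, 6 were higher and 1 lower at 24 h and 5 higher and 2 lower at 10 d. Pycr1, the last step to proline, was 1.90-fold and 1.92-fold lower with α1ACT, and Aspg, an asparaginase, was 2.48-fold and 2.53-fold higher. None of these counts was tested as a set.

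**Figure D5:**
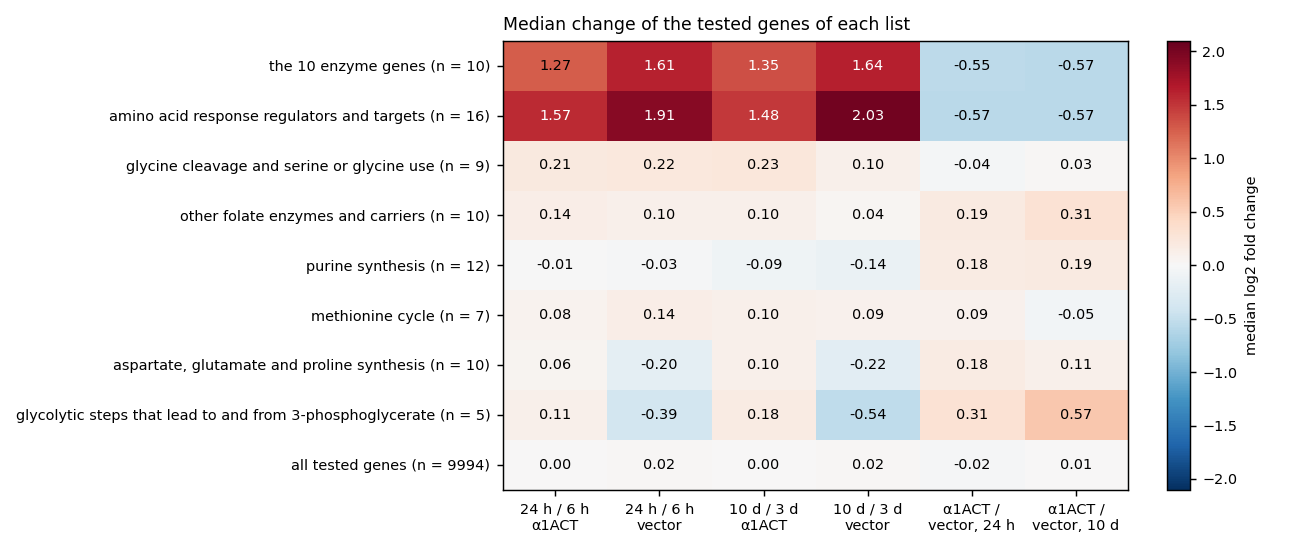
Median log2 fold change of the tested genes of the 10 enzymes, of the 7 pathway lists and of all 9994 tested genes (rows), in 6 comparisons (columns), coloured red for higher and blue for lower. The 10 genes and the amino acid response list share high medians at 24 h / 6 h and 10 d / 3 d, 1.27 and 1.57 in the first column, and negative medians of α1ACT against vector, while the other lists lie between -0.54 and 0.57.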

How the data were processed

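Per the labels, libraries came from total RNA after removal of ribosomal RNA, with a strand-marking kit and paired-end sequencing. The authors deposited 1 table of whole-number read counts per gene and library, and the submitters' processing notes name FastQC 0.11.2, TopHat2 2.0.10, Picard 1.117, HTSeq 0.5.4p5, edgeR and the rn5 build. Not given in the sources used here are the roles of these tools, the annotation, the strand setting and any removal of duplicates. The 5 summary lines of each table were left out; they held 47.8% to 52.9% of its total. CPM were computed here from TMM-scaled library sizes.

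The main test was edgeR's quasi-likelihood test (edgeR 4.0.16 in R 4.3.3) on all 24 libraries with 1 term per group and 16 residual degrees of freedom, after a filter on low counts (at least 10 in enough libraries, 15 in all), with Benjamini-Hochberg adjustment over 9994 genes and a threshold of 0.05. Groups came from the labels. Alternatives were DESeq2 1.42.0, its size factors, library sizes alone, no filter, only the groups compared, a replicate block and leaving out each library. Same-numbered replicates deviated together (every correlation over 0.1) in 1 of 12 pairs of groups, α1ACT and vector at 3 d (0.124, 0.318 and 0.139), where the replicate block kept the count of 2 genes. Replicates numbered 2 correlated positively in all 12 pairs, from 0.0392 to 0.342. In every group replicates 1 and 3 differed least from each other. The main test had no term for replicate.

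All 10 enzymes are named whatever their values, and of each of the 7 pathway lists up to 4 genes of lowest p per comparison. Likeness is the Pearson correlation of log2 CPM (prior count 2) over the 8 group means, with the 5 highest and 3 lowest named. Genes and lists were chosen with earlier results of these data known. Some listed genes are not analysed here or not reported here.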

Additional observations from a re-analysis of the deposited data

Results flagged for a closer look

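The difference between times was not alike in the α1ACT and the vector line for 8 of the 10 enzyme genes, by the interaction of line and time in edgeR's quasi-likelihood test (adjusted p over all genes, 57.7% of which passed). The adjusted p was 0.000109 for Phgdh, 0.00465 for Psat1, 7.44e-05 for Psph, 0.00239 for Shmt1, 1.3e-08 for Shmt2, 5.67e-06 for Mthfd1, 3.73e-07 for Aldh1l2 and 0.000827 for Asns. For Phgdh, Psph, Shmt2, Aldh1l2 and Asns both lines were higher at 24 h than at 6 h, by less in log2 with α1ACT, and for Psat1 that difference passed at 10 d against 3 d and not at 24 h against 6 h. Shmt2 passed between the lines in both directions, with log2 values of 0.34 at 6 h and -0.61 at 24 h. Shmt1 and Mthfd1 did not pass at 24 h against 6 h with α1ACT and were lower at 24 h with vector. The file names assign these libraries to other times and lines, and the interaction as given is defined by the labels.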

How the results depend on the processing

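Of 2310 enzyme values recomputed under the alternatives, 2282 kept their call and direction, 19 lost the call, 9 gained it and 0 changed sign. For α1ACT against vector, the enzymes called were 3 at 6 h and 5 with only the groups compared, and 2 at 3 d and 1 with library sizes alone (Mthfd2 then had an adjusted p of 0.0635). At 3 d a fit of those groups alone also called Asns (log2 -0.18, adjusted p = 0.00421). Leaving out 1 library gave 0 to 1 enzymes at 3 d, 0 to 1 at 10 d against 24 h with α1ACT and 0 to 1 over all Q11 against P files. Counts over all genes moved most between like times. At 3 d against 6 h with α1ACT 106 genes became 193 with the replicate block and 31 to 150 without 1 library, and with vector 147 became 226 with no filter, 258 with the replicate block and 30 to 246 without 1 library. At 10 d against 24 h with α1ACT 462 became 71 with only the groups compared and 23 to 819 without 1 library, and with vector 744 became 312 with only the groups compared and 256 to 904 without 1 library. The lowest of these came without α1ACT 3 d replicate 1, vector 3 d replicate 1, α1ACT 10 d replicate 3 and vector 24 h replicate 3. The block changed no other call of the enzymes, and the causes were not tested. Library sizes alone moved the share of higher calls between the lines at 6 h to 60.3%, against 49.1%, with the median of all genes shifted by 0.05. Precision is limited by 3 libraries a group and, for Aldh1l2, by counts as low as 38.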
